A study of Rattus norvegicus with 30 samples.

Results

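The constitutive proteasome genes were the 41 genes on the array whose only symbol reads Psm, a letter from a to g, and a number, with the immunoproteasome genes Psmb8, Psmb9 and Psmb10 left out. They were chosen by name and not by a measured value, though with earlier results of these data known. They came out of 14217 genes that have a probe set with a single symbol, and each was read on its brightest probe set. By role they comprised 7 genes of the alpha ring, 6 of the beta ring, 6 of the ATPase ring, 11 non-ATPase subunits of the regulatory particle, 7 assembly factors, and 4 activators or inhibitors. They were measured in primary hepatocytes of male Sprague Dawley rats, bought frozen, plated on collagen under Matrigel and dosed on day 3 of culture, with RNA of 30 wells hybridised to 1 GeneChip array of the rat genome each. The 6 groups of 5 wells received vehicle, 300 µM phenobarbital or 3000 µM phenobarbital for 24 h or 48 h. The labels call the vehicle water in one field and culture medium in another. The labels call the wells separate cultures of purchased cells and name no donor animals, so every p-value measures the spread between wells only. Phenobarbital is a barbiturate drug and a classic inducer of hepatic cytochrome P450 genes through the nuclear receptor CAR.

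The proteasome degrades proteins tagged with ubiquitin. Its barrel-shaped core particle has outer rings of alpha subunits, which gate the entrance, and inner rings of beta subunits, of which Psmb5, Psmb6 and Psmb7 carry the chymotrypsin-like, caspase-like and trypsin-like active sites. The regulatory particle caps the barrel: a ring of ATPases unfolds the substrate, and non-ATPase subunits bind ubiquitin, remove it and hold the particle together. Dedicated chaperones assist the building of both particles and then leave. When proteasome activity is short, the transcription factor Nrf1 (Nfe2l1) raises transcription of the subunit genes together through antioxidant response elements, and its relative Nrf2 (Nfe2l2) does so under oxidative stress. In hepatocytes the proteasome also degrades many enzymes of drug metabolism and misfolded secretory proteins.

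All 41 genes passed the filter on low signal (the highest group mean had to reach a log2 signal of 8.58, a signal of 383), as did 16622 of 31042 probe sets, and the p-values were adjusted over all of these. Mean log2 signals of the 41 lay between 11.21 and 15.75, in the upper part of the array's range, and 5240 tested probe sets shared that range. Signals of different probe sets are not comparable as levels, so all comparisons are within a probe set. A gene rose or fell where limma's adjusted p was under 0.05. Arrays of a group correlated at 0.951 to 0.981 over the tested probe sets. The spiked hybridisation controls deviated by 1.39 log2 units on array 4 of the 3000 µM group at 48 h and by 0.93 on array 1 of the vehicle group at 24 h, against -0.21 to 0.1 on the other 28 arrays. Some results that rest on either array are also given without it. Array numbers are names in accession order. Of 7 hepatocyte markers, 6 were on the array with a single symbol and all 6 were well above the filter, with a summed log2 signal of 18.11 to 18.99. Macrophage markers were also present: Cd68, Clec4f and Cd14 passed the filter, of 5 measured, with a summed log2 signal of 13.97 to 14.10 in vehicle wells and 13.86 to 13.96 in wells with 3000 µM at 24 h, and of 13.55 to 13.65 and 13.64 to 13.86 at 48 h. At 3000 µM 4 of the 6 hepatocyte markers fell at 24 h (Apob -0.47, Ttr -0.29, Apoa1 -0.27 and Hnf4a -0.17), with all 6 below 0. At 48 h Apob (-0.89) and Hnf4a (-0.43) fell, and the other 4, Alb among them (0.27), lay above 0 and did not pass. Of the 3 macrophage markers Cd68 rose by 0.54 at 24 h, while Cd14 fell by 0.16 and Clec4f gave -0.22. At 48 h Cd68 rose by 0.80, and Cd14 (0.08) and Clec4f (-0.027) did not pass. Of the measured markers, 3 of 6 of stellate cells, 1 of 6 of endothelial cells, 1 of 3 of cholangiocytes and 0 of 4 of lymphocytes passed the filter, and of these only the cholangiocyte marker Epcam passed the test at 3000 µM (a fall of 0.14 at 48 h). Their part in the results below was not tested, and in these bulk samples fewer cells of a type and less RNA per cell cannot be told apart.

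Because the known control of these genes acts through their promoters, the RefSeq windows (build GRCr8, 250 bases before to 50 after the annotated start) were searched for the core of the antioxidant response element, TGACNNNGC, and for CCAAT, both on either strand. Windows were matched for 37 of the 41 genes and not for Psma7, Psmd6, Psmd12 and Psmd14. The response element core lay in 7 of the 37 windows (18.9%: Psma3, Psmb2, Psmb5, Psmd1, Psmd3, Psmd9 and Psme4) and in 12.1% of all 33469 windows of the table, and CCAAT lay in 18 of 37 (48.6%) and in 37.5% of all. Of the 16 matched genes that rose at 3000 µM at both times 3 held the response element core, and of the 11 that rose at neither time 2 did. The 200 bases before the start are shown for the 4 genes that rose at 3000 µM and hold the core there, and for Psmc4, the member that rose at both doses and both times, which has no match in its window. Each is given 5′ to 3′ on the gene's strand and ends at the base before the start, with matches of TGACNNNGC in capitals and CCAAT left in lower case.
Psmb5 (chr15:32047380-32047579, minus strand): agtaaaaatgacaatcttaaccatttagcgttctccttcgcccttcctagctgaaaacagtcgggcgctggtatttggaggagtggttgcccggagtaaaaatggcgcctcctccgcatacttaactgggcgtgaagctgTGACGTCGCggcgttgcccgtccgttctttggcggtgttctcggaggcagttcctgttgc
Psmd9 (chr12:39018265-39018464, minus strand): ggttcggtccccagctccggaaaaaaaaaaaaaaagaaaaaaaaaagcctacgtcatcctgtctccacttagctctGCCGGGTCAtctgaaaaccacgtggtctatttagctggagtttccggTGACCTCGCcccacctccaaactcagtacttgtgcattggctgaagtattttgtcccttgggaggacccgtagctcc
Psmb2 (chr5:144254858-144255057, plus strand): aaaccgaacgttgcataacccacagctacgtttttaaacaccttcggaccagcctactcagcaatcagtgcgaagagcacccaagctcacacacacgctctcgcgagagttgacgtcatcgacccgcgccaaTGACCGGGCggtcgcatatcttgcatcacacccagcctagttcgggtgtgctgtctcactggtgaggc
Psmd1 (chr9:94157771-94157970, plus strand): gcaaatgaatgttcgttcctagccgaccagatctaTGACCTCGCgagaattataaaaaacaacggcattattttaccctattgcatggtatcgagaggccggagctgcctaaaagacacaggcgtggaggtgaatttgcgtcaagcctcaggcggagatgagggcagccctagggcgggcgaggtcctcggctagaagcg
Psmc4 (chr1:92485061-92485260, minus strand): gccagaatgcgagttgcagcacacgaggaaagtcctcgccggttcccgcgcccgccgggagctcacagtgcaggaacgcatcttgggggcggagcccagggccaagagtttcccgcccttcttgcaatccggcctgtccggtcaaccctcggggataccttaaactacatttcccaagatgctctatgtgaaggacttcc
The match of Psmb5 covers positions -60 to -52, counted back from the start. Psmd9 holds matches at -124 to -116, on the opposite strand, and at -77 to -69. The Psmb2 match at -68 to -60 shares its first base with a CCAAT at -72 to -68, and Psmd1 has a further match after the start. A match describes the letters only, and binding was not measured here.

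At 3000 µM phenobarbital proteasome genes of every role other than the activators and inhibitors rose, each by less than 2-fold. At 24 h 20 of the 41 rose and 2 fell, while 17.3% of all tested probe sets rose and 14.8% fell. By 48 h 26 rose and 2 fell, against 19.4% and 19.9% of all tested probe sets. Among the 5240 probe sets in the same range of signal, whose within-group SD was lower (median 0.119, against 0.2 over all tested and 0.0913 over the members), 27.6% rose and 23.5% fell at 24 h, and 32.2% rose and 28% fell at 48 h. The median log2 change of the 41 genes was 0.14 at 24 h and 0.21 at 48 h, beside 0.009 and -0.00083 over all tested probe sets. The 5 arrays at 3000 µM lay above all 5 vehicle arrays for 17 of the genes at 24 h (13.2% of all tested probe sets) and below them for 2 (11.4%), and at 48 h above them for 16 (11.5%). In the same range of signal these shares were 23.3%, 20.3% and 19.4%, beside 41.5%, 4.88% and 39% of the members. Centring each array on its own median raised the members' median at 24 h to 0.21, with 67.0% in place of 53.9% of all calls upward.

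**Figure D1:**
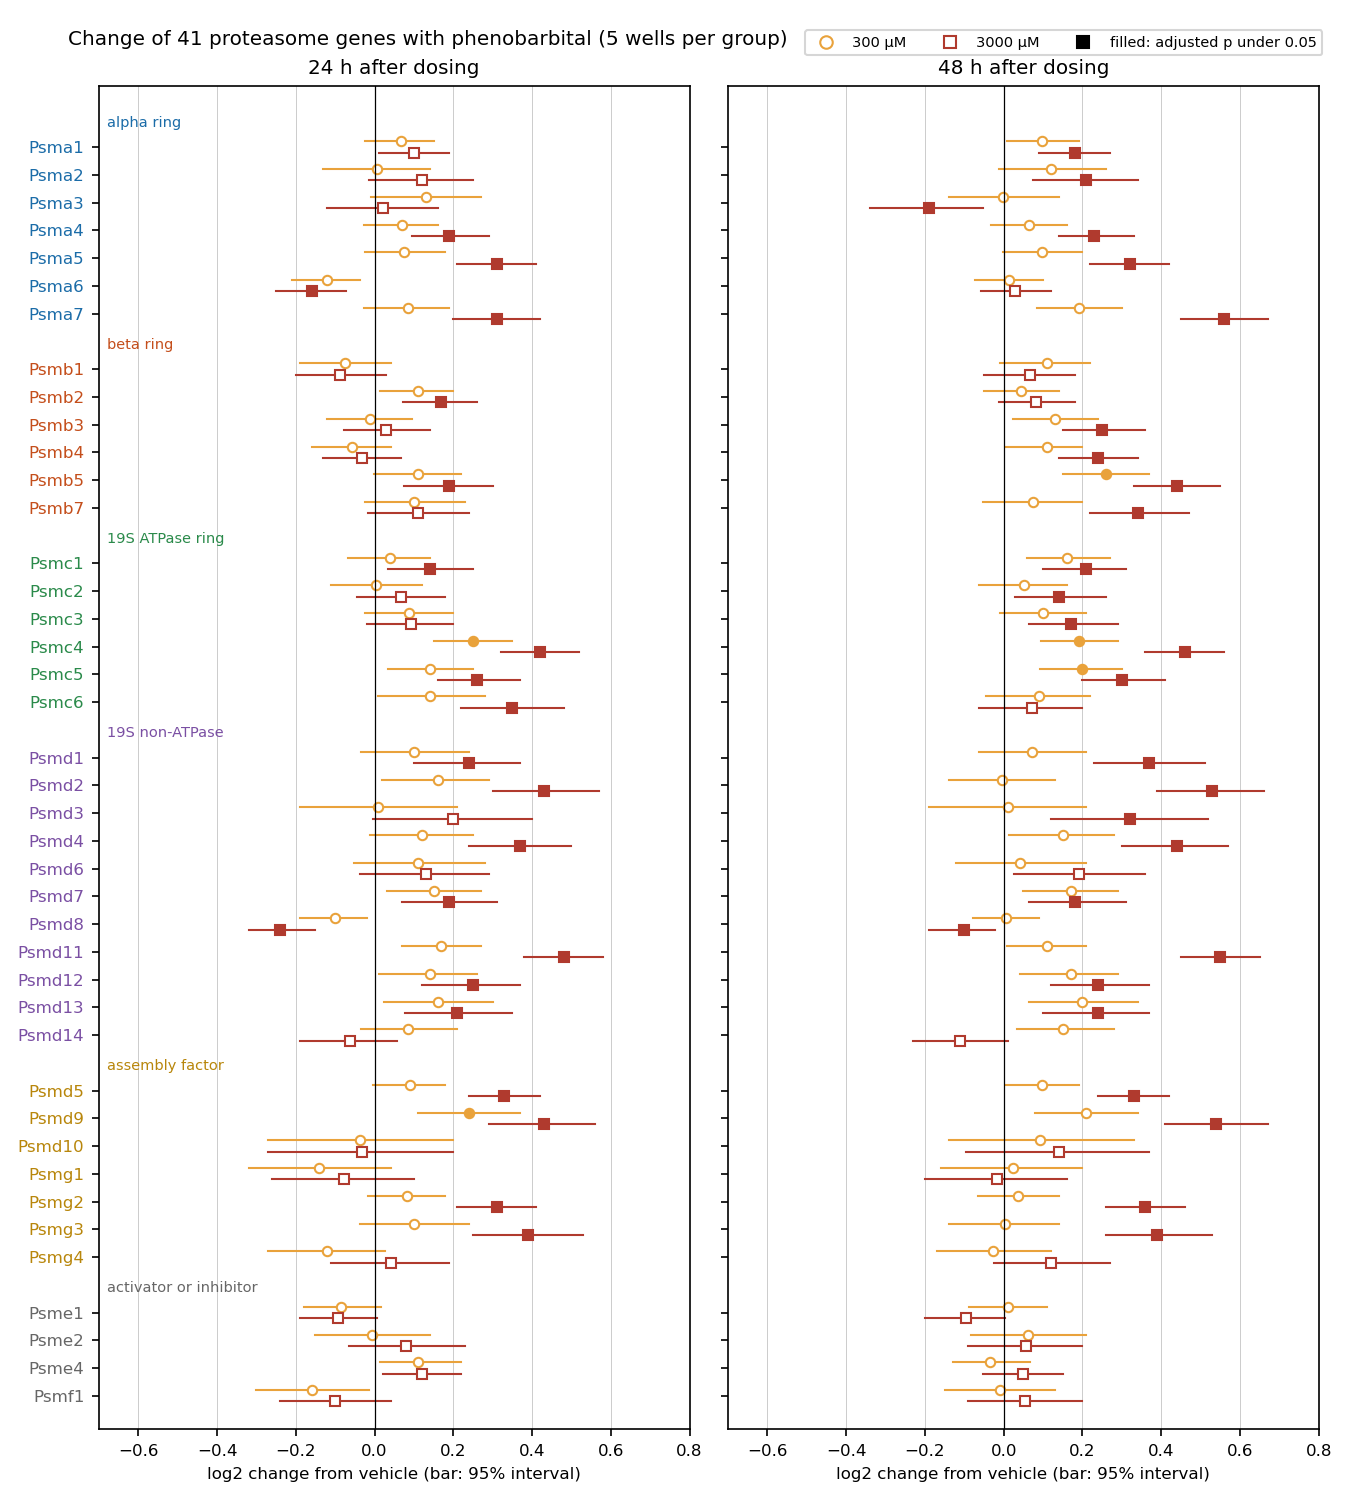
Log2 change from vehicle of the 41 genes, by role, at 24 h (left) and 48 h (right) for 300 µM (circles) and 3000 µM (squares), with 95% intervals of limma and filled symbols where the adjusted p was under 0.05. At 3000 µM the filled symbols lie right of 0 for 20 genes at 24 h and 26 at 48 h, from the alpha ring to the assembly factors, and none of the 4 activators or inhibitors is filled.

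In the alpha ring, 3 of 7 genes rose and 1 fell at 24 h, and 5 rose and 1 fell at 48 h. Psma7 was the alpha subunit with the largest change. Its log2 signal at 24 h was 14.59, 14.45, 14.51, 14.26 and 14.29 in the vehicle wells and 14.63, 14.78, 14.79, 14.72 and 14.73 in the wells with 3000 µM. At 48 h the vehicle wells read 14.21, 14.35, 14.15, 14.12 and 14.19 and the 3000 µM wells 14.70, 14.75, 14.74, 14.85 and 14.76. The 3000 µM wells were above every vehicle well at both times, and the gap was wider at 48 h. The log2 change was 0.31 ± 0.054 (SE, 1.24-fold, adjusted p = 2.83e-05) at 24 h and 0.56 ± 0.054 (SE, 1.47-fold, adjusted p = 4.33e-10) at 48 h. Psma5 rose by 0.31 at 24 h and 0.32 at 48 h, and Psma4 by 0.19 and 0.23. Psma1 (0.18) and Psma2 (0.21) rose at 48 h, and their changes at 24 h (0.10 and 0.12) did not pass.

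Psma6 and Psma3 went the other way, each at a single time. Psma6 read 15.73, 15.62, 15.61, 15.56 and 15.59 with vehicle and 15.42, 15.46, 15.46, 15.49 and 15.47 with 3000 µM at 24 h. All 5 treated wells lay below the vehicle wells, and the log2 change was -0.16 ± 0.043 (SE, 1.12-fold lower, adjusted p = 0.00383). At 48 h the vehicle wells had themselves come down to a mean of 15.44, and the change was 0.029 (adjusted p = 0.632). The fall at 24 h did not pass after the array medians were centred (-0.095, adjusted p = 0.31) or after quantile normalisation (-0.04, adjusted p = 0.372). Psma3 at 48 h read 12.43, 12.52, 12.38, 12.43 and 12.42 with vehicle and 12.36, 12.32, 12.41, 11.93 and 12.20 with 3000 µM. The groups overlapped, and the lowest treated value, 11.93, came from array 4, where the hybridisation controls deviated. The log2 change of -0.19 ± 0.069 (SE, 1.14-fold lower, adjusted p = 0.0247) shrank to -0.12 (adjusted p = 0.121) without that array. A probe set that the annotation assigns to Psma3 and its near-copy Psma3l rose at 48 h, by 0.17 (adjusted p = 0.0102), so the signals for this gene disagree.

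In the beta ring, 2 of 6 genes rose at 24 h and 4 at 48 h, and none fell. Psmb5, the chymotrypsin-like subunit, read 14.86, 14.82, 14.78, 14.70 and 14.69 with vehicle and 14.85, 14.94, 15.04, 15.03 and 14.93 with 3000 µM at 24 h. At 48 h it read 14.56, 14.63, 14.55, 14.64 and 14.62 with vehicle, 14.94, 14.86, 14.85, 14.85 and 14.82 with 300 µM and 15.08, 15.12, 14.89, 15.23 and 14.91 with 3000 µM. The groups overlapped at 24 h, whereas at 48 h every treated well, at either dose, was above every vehicle well. The log2 change at 3000 µM was 0.19 ± 0.054 (SE, 1.14-fold, adjusted p = 0.00734) at 24 h and 0.44 ± 0.054 (SE, 1.36-fold, adjusted p = 3.76e-08) at 48 h. Psmb7, the trypsin-like subunit, read 13.90, 13.81, 13.77, 13.61 and 13.83 with vehicle and 13.85, 13.88, 13.96, 13.88 and 13.90 with 3000 µM at 24 h, with overlap. It read 13.71, 13.70, 13.67, 13.60 and 13.77 with vehicle and 13.97, 13.82, 13.93, 14.26 and 14.19 with 3000 µM at 48 h, without overlap. Its log2 change there was 0.34 ± 0.062 (SE, 1.27-fold, adjusted p = 3.45e-05), beside 0.11 (adjusted p = 0.191) at 24 h.

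Psmb6, the caspase-like subunit, was measured here only by a probe set shared with Psmb6l1, so it is not counted among the 41. That probe set read 14.18, 14.23, 14.24, 14.20 and 14.14 with vehicle and 14.48, 14.50, 14.53, 14.59 and 14.50 with 3000 µM at 24 h. At 48 h it read 14.02, 14.06, 13.88, 13.92 and 14.07 with vehicle and 14.46, 14.38, 14.35, 13.94 and 14.28 with 3000 µM. The groups were apart at 24 h and overlapped at 48 h through the value of 13.94 on array 4. Its log2 change was 0.32 (adjusted p = 0.000136) at 24 h and 0.29 (adjusted p = 0.000283) at 48 h. Among the non-catalytic beta subunits, Psmb2 rose at 24 h (0.17), Psmb3 (0.25) and Psmb4 (0.24) rose at 48 h, and Psmb1 gave -0.089 and 0.067 with neither change passing. The inducible subunits Psmb8, Psmb9 and Psmb10, which replace the catalytic subunits in the immunoproteasome, rose by 0.78, 0.77 and 0.45 at 24 h and by 1.13, 0.98 and 0.69 at 48 h.

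The ATPase ring had 4 of 6 genes rising at 24 h and 5 at 48 h. Psmc4 was the ATPase with the largest change. Its vehicle wells at 24 h read 13.42, 13.46, 13.46, 13.40 and 13.43, the 300 µM wells 13.72, 13.64, 13.65, 13.73 and 13.69 and the 3000 µM wells 13.86, 13.87, 13.93, 13.83 and 13.81. At 48 h the same groups read 13.43, 13.45, 13.35, 13.28 and 13.34, then 13.56, 13.50, 13.64, 13.61 and 13.50, then 13.80, 13.84, 13.65, 13.95 and 13.90. The 3 groups did not overlap at either time, and they stood in the order of dose. The log2 change at 3000 µM was 0.42 ± 0.048 (SE, 1.34-fold, adjusted p = 2.2e-08) at 24 h and 0.46 ± 0.048 (SE, 1.37-fold, adjusted p = 2.2e-09) at 48 h. Psmc5 read 13.60, 13.62, 13.71, 13.58 and 13.62 with vehicle and 13.77, 13.92, 13.98, 13.86 and 13.92 with 3000 µM at 24 h. At 48 h it read 13.42, 13.52, 13.36, 13.36 and 13.56 with vehicle and 13.87, 13.80, 13.74, 13.64 and 13.70 with 3000 µM. These groups were apart at both times, with log2 changes of 0.26 ± 0.052 (SE, 1.2-fold, adjusted p = 0.000145) and 0.30 ± 0.052 (SE, 1.23-fold, adjusted p = 1.53e-05).

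Of the other ATPases, Psmc1 rose by 0.14 at 24 h and 0.21 at 48 h. Psmc2 (0.14) and Psmc3 (0.17) rose at 48 h only, and Psmc6 at 24 h only (0.35, beside 0.071 at 48 h). The calls of Psmc1 at 24 h (adjusted p = 0.036) and of Psmc2 at 48 h (adjusted p = 0.041) were near the threshold and were lost under 7 and 10 of the 41 alternative settings.

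Among the 11 non-ATPase subunits of the regulatory particle, 7 rose and 1 fell at 24 h, and 8 rose and 1 fell at 48 h. Psmd11, a lid subunit that helps clamp the lid to the base and core, had the largest log2 change of all members at 24 h. It read 13.61, 13.70, 13.69, 13.55 and 13.68 with vehicle and 14.15, 14.11, 14.09, 14.18 and 14.09 with 3000 µM at 24 h. At 48 h it read 13.49, 13.49, 13.43, 13.39 and 13.45 with vehicle and 14.07, 14.02, 13.98, 13.79 and 14.15 with 3000 µM. All treated wells lay above all vehicle wells at both times. The log2 change was 0.48 ± 0.05 (SE, 1.39-fold, adjusted p = 3.29e-09) and 0.55 ± 0.05 (SE, 1.47-fold, adjusted p = 8.1e-11). Psmd2, the large base subunit that docks ubiquitin shuttle factors, read 13.32, 13.38, 13.39, 13.44 and 13.29 with vehicle and 13.71, 13.83, 13.76, 13.93 and 13.75 with 3000 µM at 24 h. At 48 h it read 13.33, 13.40, 13.37, 13.41 and 13.41 with vehicle, 13.32, 13.41, 13.42, 13.49 and 13.26 with 300 µM and 13.82, 13.75, 13.89, 14.28 and 13.81 with 3000 µM. The 3000 µM wells were apart from vehicle at both times and the 300 µM wells at 48 h were not, and array 4 was the highest of its group. The log2 change at 3000 µM was 0.43 ± 0.066 (SE, 1.35-fold, adjusted p = 4.29e-06) at 24 h and 0.53 ± 0.066 (SE, 1.44-fold, adjusted p = 7.95e-08) at 48 h, or 0.43 at 48 h without array 4.

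The ubiquitin receptor Psmd4 rose by 0.37 at 24 h and 0.44 at 48 h, and the large base subunit Psmd1 by 0.24 and 0.37. The lid subunits Psmd12 (0.25 and 0.24), Psmd13 (0.21 and 0.24) and Psmd7 (0.19 and 0.18) rose at both times. Psmd3 rose at 48 h (0.32, adjusted p = 0.00992), a call that was lost without array 4 (adjusted p = 0.0539). Psmd6 gave 0.13 and 0.19, neither of which passed.

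Psmd8, a lid subunit, was the member that fell at both times. Its vehicle wells read 15.18, 15.10, 15.10, 15.04 and 14.99 at 24 h and its 3000 µM wells 14.82, 14.81, 14.89, 14.88 and 14.82. At 48 h the vehicle wells read 14.90, 15.01, 14.83, 14.91 and 14.92 and the 3000 µM wells 14.84, 14.76, 14.80, 14.79 and 14.84. The groups were apart at 24 h and overlapped at 48 h. The log2 change was -0.24 ± 0.041 (SE, 1.18-fold lower, adjusted p = 2.19e-05) and -0.10 ± 0.041 (SE, 1.07-fold lower, adjusted p = 0.0415), and the call at 48 h was lost under 12 of the 41 alternative settings, among them the fit with the running-number sets of wells as a block (adjusted p = 0.0541).

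Of the 7 assembly factors, Psmd5, Psmd9, Psmg2 and Psmg3 rose at both times, and Psmd10, Psmg1 and Psmg4 passed at neither. Psmd9, a chaperone of the ATPase ring, read 12.32, 12.35, 12.45, 12.32 and 12.40 with vehicle, 12.59, 12.65, 12.54, 12.69 and 12.58 with 300 µM and 12.85, 12.78, 12.79, 12.88 and 12.67 with 3000 µM at 24 h. At 48 h it read 12.25, 12.32, 12.03, 12.14 and 12.26 with vehicle, 12.49, 12.43, 12.37, 12.39 and 12.37 with 300 µM and 12.75, 12.82, 12.90, 12.47 and 12.78 with 3000 µM. Wells at either dose lay above every vehicle well at both times, and 300 µM and 3000 µM overlapped through a single well at each time. The log2 change at 3000 µM was 0.43 ± 0.064 (SE, 1.34-fold, adjusted p = 3.15e-06) and 0.54 ± 0.064 (SE, 1.46-fold, adjusted p = 2.29e-08). Psmd5, another chaperone of the ATPase ring, rose by 0.33 at 24 h and 0.33 at 48 h. Psmg2, which forms a dimer with Psmg1 that scaffolds the alpha ring, rose by 0.31 and 0.36, while its partner Psmg1 gave -0.078 and -0.017. The partners Psmg3 and Psmg4 likewise gave 0.39 and 0.39 for the first and 0.041 and 0.12 for the second. Within-group SDs were 0.149 for Psmg1 and 0.119 for Psmg4, against 0.063 for Psmg2 and 0.104 for Psmg3, and the difference between partners was not tested.

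On their brightest probe sets, none of the 4 activators or inhibitors with a probe set of their own passed at 3000 µM at either time. Other probe sets of Psme1 and Psme4 are described further below. The subunits of the interferon-inducible activator, Psme1 (-0.093 and -0.096) and Psme2 (0.081 and 0.056), the nuclear activator Psme4 (0.12 and 0.049) and the regulator Psmf1 (-0.10 and 0.053) had 95% intervals of the log2 change that ran from -0.24 at the lowest bound to 0.23 at the highest. Changes of the size seen in Psmc4 or Psmd11 lie outside those intervals. Psme3, which forms a nuclear activator, shares its 4 probe sets with Aoc3 and G6pc1 and is not among the 41. Of these, 2 rose at 3000 µM (by 0.34 and 0.65 at 24 h and 48 h, and by 0.26 and 0.43) and 2 fell (log2 changes of -1.62 and -1.16, and of -1.12 and -0.62), so no direction can be given for Psme3.

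**Figure D2:**
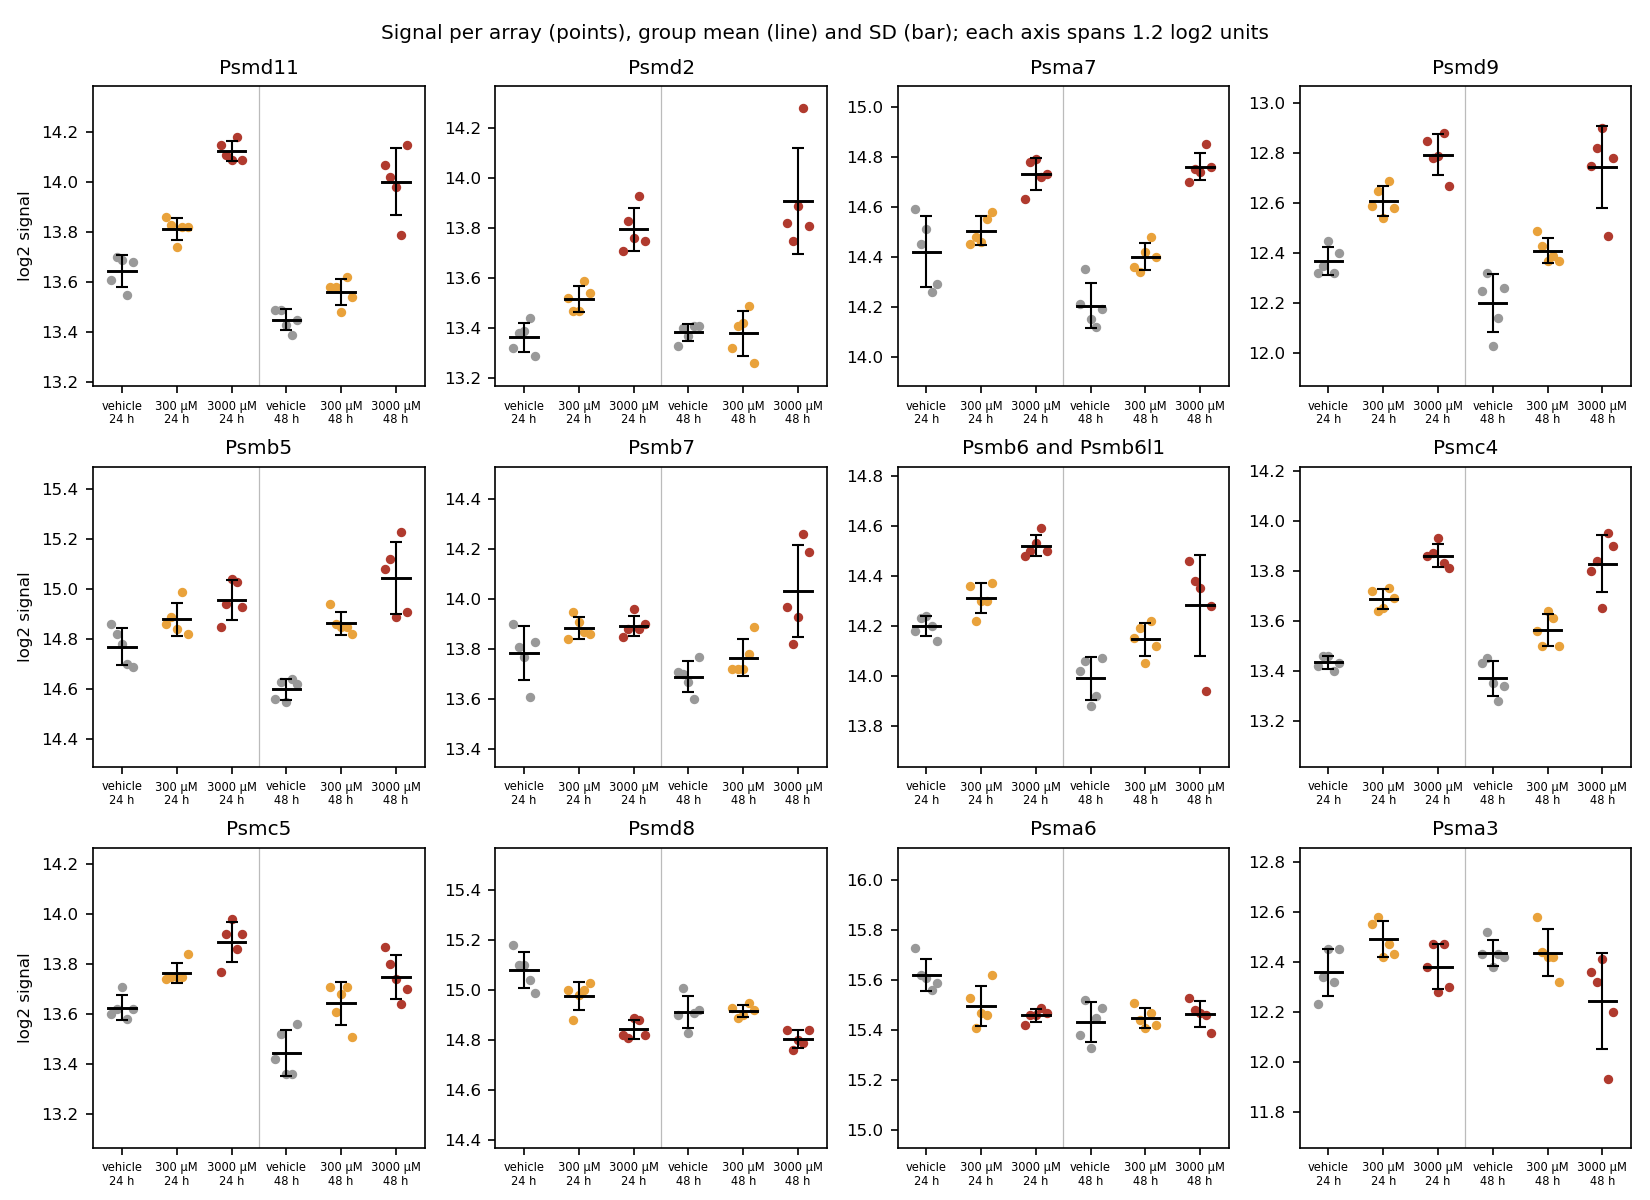
Log2 signal of 12 probe sets on each of the 30 arrays (points; grey vehicle, orange 300 µM, red 3000 µM), with the group mean (line) and SD (bar, n = 5). Psmd11, Psmd2, Psma7, Psmd9 and Psmc4 show the 3000 µM wells above all vehicle wells at both times, and Psmd8 shows them below at 24 h.

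At 300 µM few proteasome genes passed on their brightest probe sets. At 24 h Psmc4 (0.25 ± 0.048, SE, adjusted p = 0.00194) and Psmd9 (0.24 ± 0.064, SE, adjusted p = 0.0297) rose, 2 of the 41, where 1.71% of all tested probe sets rose and 1.27% fell. In the members' range of signal 3.51% rose and 3.09% fell, close to the 4.88% of the members that rose. For Psmc5 at 48 h the 300 µM wells read 13.71, 13.61, 13.68, 13.71 and 13.51, with overlap with the vehicle wells given above. At 48 h Psmb5 (0.26 ± 0.054, SE, adjusted p = 0.00453), Psmc4 (0.19 ± 0.048, SE, adjusted p = 0.0301) and Psmc5 (0.20 ± 0.052, SE, adjusted p = 0.0414) rose, 3 of the 41, where 0.812% of all tested probe sets rose and 0.722% fell. In the members' range of signal 2% rose and 1.55% fell at 48 h, beside 7.32% of the members that rose. No member fell at 300 µM. With array medians centred, 66.4% in place of 52.9% of all calls at 48 h were upward. All 5 wells at 300 µM lay above all vehicle wells for 7 members at 24 h (2.77% of all tested probe sets) and for 4 at 48 h (2.21%). In the members' range of signal these shares were 5.08% and 5.17%, beside 17.1% and 9.76% of the members. The median log2 change of the 41 was 0.086 at 24 h and 0.092 at 48 h, beside 0.0012 and -0.015 over all tested probe sets, with 30 and 36 of the 41 above 0. The rise of Psmc4 at 24 h passed under all 41 alternative settings, and the others were lost under 1 (Psmb5), 9 (Psmd9), 10 (Psmc4 at 48 h) and 14 (Psmc5) of them. Among the settings that lost the Psmd9 call was the one without array 1 of the vehicle group at 24 h.

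The doses were also compared with each other. From 300 µM to 3000 µM, 11 members rose and 1 fell at 24 h (13.9% and 12.2% of all tested probe sets), and 16 rose and 3 fell at 48 h (17.9% and 16.9%). Among probe sets in the members' range of signal 23.8% rose and 19.5% fell at 24 h, close to the members' 26.8% for rises. At 48 h 27.6% rose and 26.1% fell there, beside 39% and 7.32% of the members. These comparisons share wells with those against vehicle. On the brightest probe sets, the largest differences between the doses were those of Psmd11 (0.31), Psmg3 (0.29) and Psmd2 (0.28) at 24 h, and of Psmd2 (0.53), Psmd11 (0.44) and Psmg3 (0.39) at 48 h. A second probe set of Psmd11, with a mean log2 signal of 13.48, gave -0.072 at 24 h and 0.047 at 48 h, neither passing. With array medians centred, 66.6% in place of 53.3% of all calls at 24 h were upward. Psmc5 had no difference that passed between the doses at either time (0.12 and 0.10). The members that fell from 300 µM to 3000 µM were Psmd8 at both times (-0.14 and -0.11) and Psma3 (-0.19) and Psmd14 (-0.27) at 48 h. The call of Psma3 was lost without array 4 of the 3000 µM group at 48 h.

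The vehicle wells themselves differed between the times. From 24 h to 48 h 15 of the 41 members fell and none rose, where 3.15% of all tested probe sets fell and 4.05% rose, and the members' median log2 change was -0.16, beside 0.026 over all. All 5 vehicle wells at 48 h lay below all 5 at 24 h for 14 of the members (3.71% of all tested probe sets). In the members' range of signal 7.73% fell and 6.07% rose, and 8.91% had all 5 wells lower. The falls spread over the alpha ring (Psma1, Psma5, Psma6 and Psma7), the beta ring (Psmb3, Psmb4 and Psmb5), the ATPases (Psmc1, Psmc2, Psmc3 and Psmc5) and the non-ATPase subunits (Psmd8, Psmd11, Psmd12 and Psmd14), and no assembly factor passed. Among the cell type markers, Epcam (0.28) rose and the macrophage marker Cd14 (-0.49) fell over the same time, and none of the 6 hepatocyte markers passed. Their part in the members' falls was not tested. These falls ranged from -0.15 for Psma1 to -0.26 for Psmc3. The assembly factors' own median was -0.12. Array 1 of the vehicle group at 24 h, whose hybridisation controls deviated, was the highest of its group for 16 of the 41 members, ties counted, among them Psma6, Psma7, Psmb4 and Psmb5, and 8 members fell without it. Also 8 members fell without array 3 and 9 without array 4 of the vehicle group at 48 h. Quantile normalisation left 6 falls and a median of -0.083, and centring of the array medians moved the upward share of all calls from 56.3% to 36.7%.

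Set against the mean of the vehicle wells at 24 h, the median over the 41 members on each array shows both movements. It averaged -0.004 with vehicle, 0.076 with 300 µM and 0.15 with 3000 µM at 24 h, and -0.14, -0.048 and 0.077 at 48 h. At 24 h the groups did not overlap (-0.056 to 0.031, 0.04 to 0.1 and 0.11 to 0.18). At 48 h vehicle (-0.18 to -0.097) lay below 300 µM (-0.081 to 0.0031), and 4 of the 5 arrays at 3000 µM (0.081 to 0.14) lay above both, with array 4 at -0.065.  Without array 4 the members' median change at 48 h was 0.26 in place of 0.21.

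**Figure D3:**
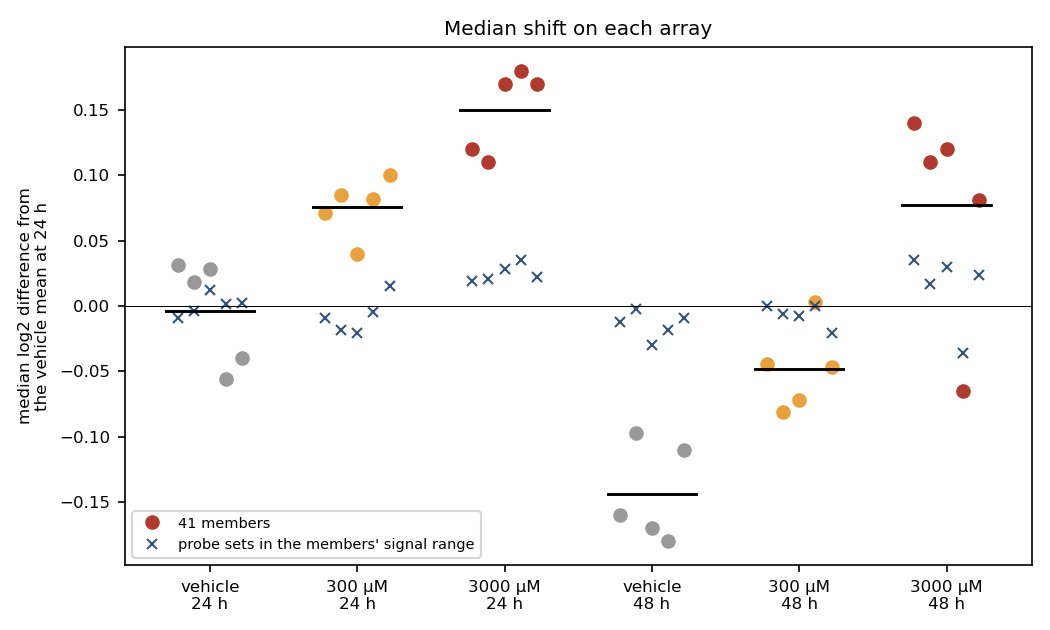
Median log2 difference from the vehicle mean at 24 h on each of the 30 arrays, over the 41 members (circles; line, group mean) and over the 5240 tested probe sets in the same range of signal (crosses). The circles step up with dose at each time and start lower at 48 h, while the crosses stay between -0.036 and 0.035.

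Many of the genes that rose at 3000 µM rose at both times. Of the 20 members that rose at 24 h and the 26 at 48 h, 18 were shared, which is 90% of the first list and 69.2% of the second. Over all tested probe sets the corresponding shares were 66.7% and 59.3%, and over those in the members' range of signal 74% and 63.4%. Psmb2 and Psmc6 rose at 24 h alone, and Psma1, Psma2, Psmb3, Psmb4, Psmb7, Psmc2, Psmc3 and Psmd3 at 48 h alone. These lists come from different wells. Over the 41 genes the changes at the 2 times had a Pearson r of 0.815 and a Spearman rho of 0.818, given as a description of genes read on the same probe sets. The sign was shared by 35 of the 41, and the change, taken with its sign, was higher at 48 h for 32. It was higher at 48 h for 7875 of the 16622 tested probe sets, and for 2589 of the 5240 in the members' range of signal. The vehicle wells of both times enter this count. The shared sign and the correlations were computed for the members only.

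The change of the effect from 24 h to 48 h was itself tested. It passed for Psmb4 (0.27 ± 0.069, SE, adjusted p = 0.0197) and Psmb5 (0.26 ± 0.076, SE, adjusted p = 0.0474) at 3000 µM, 2 members upward and none downward, where 1.38% and 2.75% of all tested probe sets did so. In the members' range of signal 3.09% passed upward and 5.11% downward. With array medians centred 18.1% in place of 33.4% of all such calls over the tested probe sets were upward. Psmb4, a non-catalytic beta subunit, had a mean log2 signal of 15.80 with vehicle and 15.77 with 3000 µM at 24 h, and of 15.61 and 15.86 at 48 h. The Psmb4 result did not pass after centring of the array medians or quantile normalisation, and the Psmb5 result was lost under 30 of the 41 alternative settings. Psma7 (0.24, adjusted p = 0.0621), Psma6 (0.19, adjusted p = 0.0677), Psmb3 (0.23, adjusted p = 0.0779) and Psmc6 (-0.28, adjusted p = 0.0797) did not pass. At 300 µM no member and 0% of the 16622 probe sets passed in either direction, with 5 members and 1255 probe sets at an unadjusted p under 0.05. Genes listed above as rising at 48 h alone, other than Psmb4, are therefore not shown to differ between the times.

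**Figure D4:**
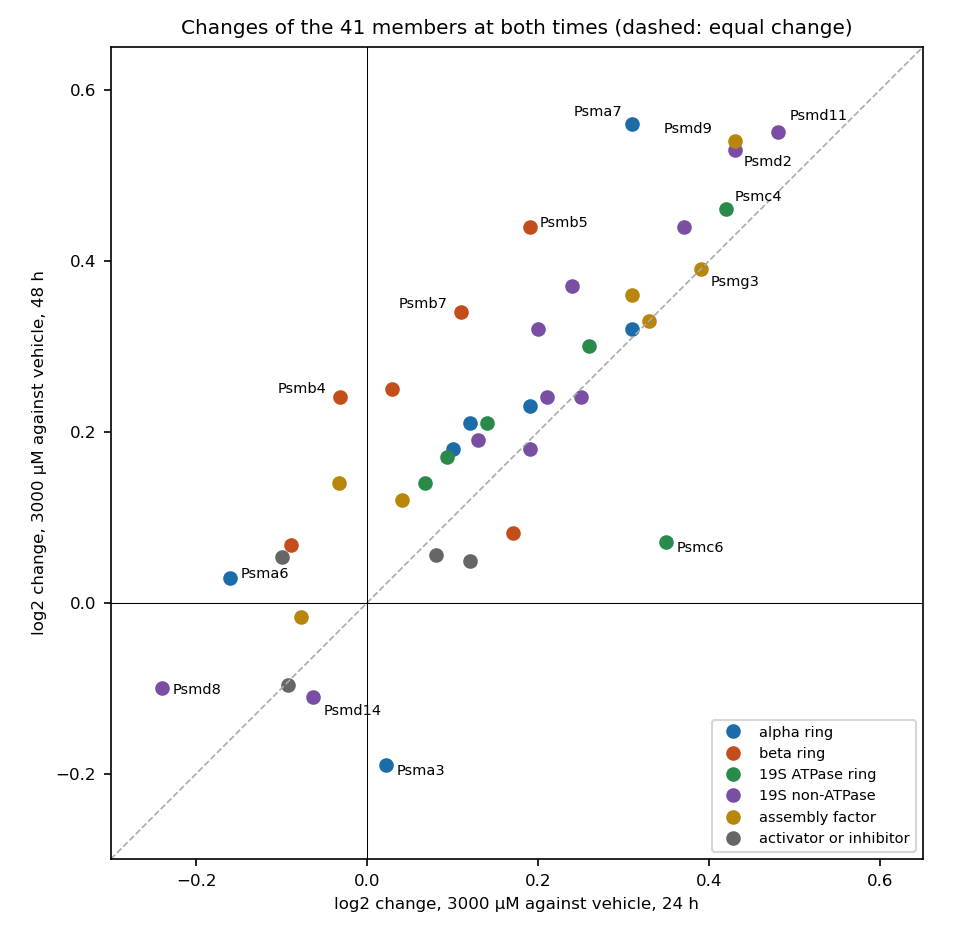
Log2 change at 3000 µM against vehicle at 24 h (horizontal) and 48 h (vertical) for the 41 members, coloured by role, with the line of equal change dashed. Of the 41 genes 32 lie above the line, with Psma7, Psmb4, Psmb5 and Psmb7 well above it and Psmc6 and Psma3 below.

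For 9 genes the array carries several probe sets, and for some of them these disagree. For Psmd14, the deubiquitinase of the lid, the probe set used gave -0.063 at 24 h and -0.11 at 48 h, neither passing, while another rose by 0.28 and 0.45 and the remaining one by 0.55 at 48 h. On the mean of its probe sets the fall of Psmd14 from 300 µM to 3000 µM at 48 h (-0.27) became a rise of 0.16. For Psmc6 another probe set fell by 0.39 at 48 h, where the one used gave 0.071. The rise of Psmc6 at 24 h on the probe set used did not pass on its other probe sets (0.18 and 0.20). For Psme4 a dimmer probe set fell by 0.43 and 0.62, and the brightest and a further one did not pass. For Psme1 a dim probe set rose by 1.58 at 24 h (adjusted p = 0.0335). Its means there, 7.94 with 3000 µM and 6.36 with vehicle, were both under the filter level, and its change of 0.91 at 48 h did not pass. A second probe set of Psmd11 had a change of 0.09 at 24 h that did not pass and a rise of 0.13 at 48 h, both smaller than on the brightest. The second probe set of Psmd9, near the filter level at a mean log2 signal of 8.98, gave -0.32 and -0.61, neither passing, and with the mean of both probe sets the Psmd9 change was 0.054 at 24 h and -0.034 at 48 h, with neither call kept. For Psmb5 the other tested probe set, near the filter level at a mean log2 signal of 8.6, gave 0.15 and 0.81, neither passing. On the mean of the tested probe sets of Psmb5, its rise at 3000 µM did not pass limma's test at 24 h (adjusted p = 0.484) and was kept at 48 h. The rise of Psmb5 at 300 µM at 48 h did not pass on that mean (adjusted p = 0.294). Psmd7 rose on both of its probe sets at both times. At 300 µM at 24 h another probe set of Psmc6 rose by 0.36 (adjusted p = 0.045), and another of Psmd11 by 0.16 (adjusted p = 0.046). Neither of these passed at 48 h, and the brightest probe sets of both genes did not pass at 300 µM.

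**Figure D5:**
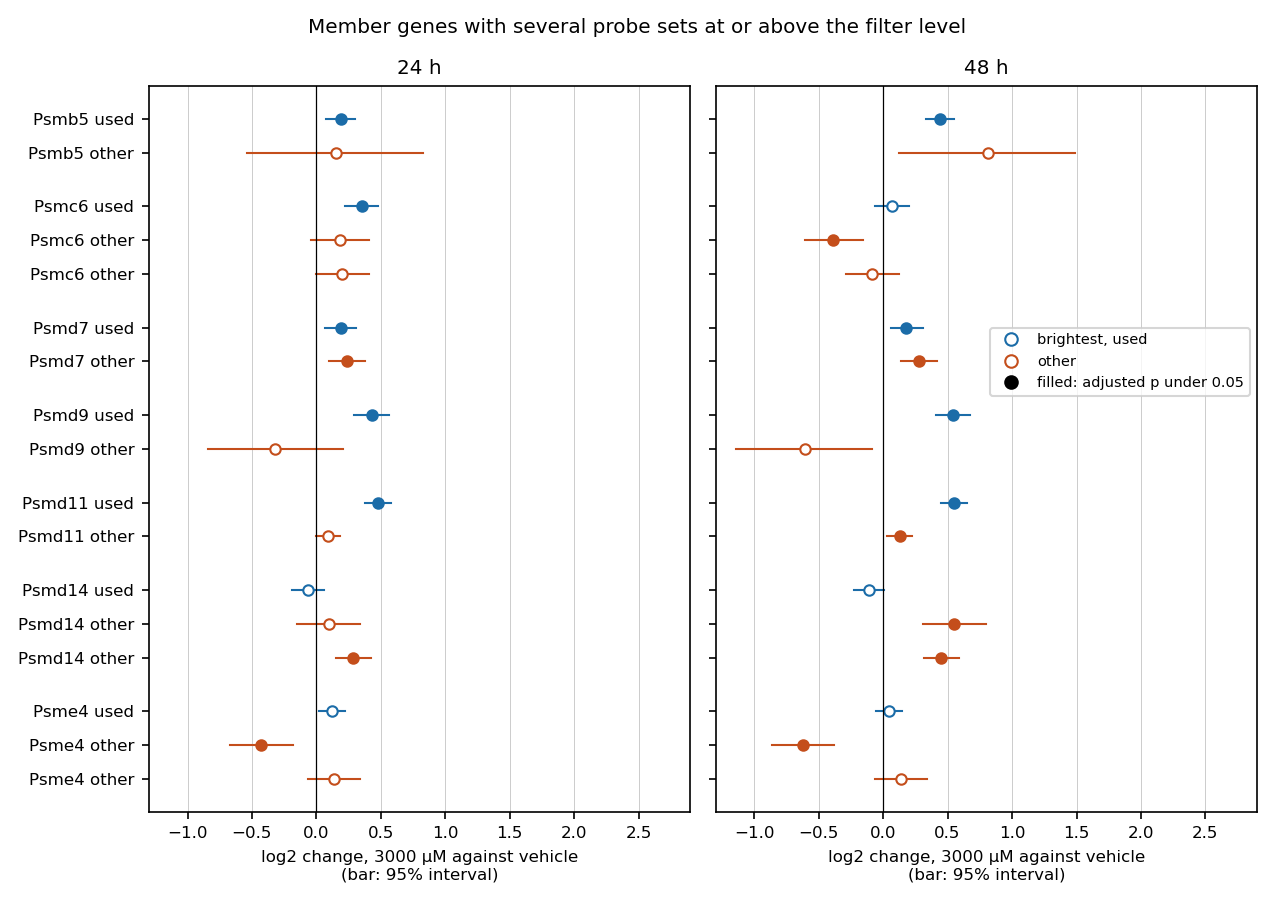
Log2 change at 3000 µM at 24 h and 48 h for the member genes with several probe sets that reached the filter level in a compared group at each time, with 95% intervals of limma. The brightest probe set (blue) was used, and the others (orange) lie on the opposite side of 0 for Psmd14, Psmd9 and a probe set of Psme4, and for Psmc6 at 48 h.

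Genes that act with the proteasome but carry other names were examined as lists, described here at 3000 µM by counts and medians, beside the 17.3% and 14.8% of all tested probe sets that rose and fell at 24 h and the 19.4% and 19.9% at 48 h. Of 16 proteasome-associated factors 15 were measured, and 8 rose and 1 fell at 24 h, and 8 rose and none fell at 48 h, with medians of 0.22 and 0.14. Zfand2a, a heat-shock-induced adaptor that binds the regulatory particle, rose by 1.04 and 1.0, and also at 300 µM, by 0.68 and 0.32. The deubiquitinases Uchl5 (0.45 and 0.55) and Usp14 (0.45 and 0.34) rose at both times. Pomp, the maturation factor of the core particle, fell by 0.15 at 24 h and rose by 0.14 at 48 h, and that difference between the times passed (0.29, adjusted p = 0.0187). The ubiquitin receptor Adrm1 rose at 48 h (0.46). Of 16 genes for ubiquitin, its activation, shuttle factors and the p97 unfoldase, 11 were measured, and 8 rose and none fell at each time, with medians of 0.25 and 0.27. These included the unfoldase gene Vcp (0.25 and 0.26), its cofactors Nsfl1c (0.36 and 0.51) and Ufd1 (0.27 and 0.27), and the shuttle factors Ubqln1 (0.37 and 0.54) and Rad23b (0.23 and 0.35).

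Of the 10 genes of the Nrf1 and Nrf2 pathway, 2 rose and 2 fell at each time, shares near those over all tested probe sets, with medians of -0.078 and 0.13. The counts alone therefore do not set the list apart. Nfe2l1, which encodes Nrf1, rose by 0.45 at 24 h and 0.77 at 48 h, and Maff, a small Maf partner, by 0.69 and 0.60. Ddi2, the protease that releases active Nrf1, fell by 0.27 and 0.78, with a difference between the times that passed (-0.50, adjusted p = 0.0211), and Ngly1, the glycanase that processes Nrf1, fell by 0.45 and 0.54. Nfe2l2, which encodes Nrf2, gave -0.043 and 0.074, neither passing, and Keap1, its inhibitor, -0.11 and -0.13.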

How the data were processed

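RNA of 30 wells was hybridised to GeneChip arrays of the rat genome, and the deposited values are MAS5 signal intensities, per the submitters' processing notes, which give no version. They are linear intensities, 1 per probe set. How the authors scaled them is not given in the sources used here, and the trimmed mean (2% off each end) was 1500.6 to 1500.7 on every array. Array medians ran from 348 to 424. Arrays have no read depth, so their number, 5 a group, limits the precision. Groups were taken from the titles and characteristics. Of 31042 probe sets other than the 57 controls, 20826 had 1 symbol, 436 several and 9780 none in the platform annotation.

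Log2 of the signal, with no constant added, was fitted with limma 3.58.1 (R 4.3.3) over all 30 arrays as 6 group means, with 9 contrasts, moderated variances (trend, robust) and Benjamini-Hochberg adjustment over the 16622 probe sets tested. Values in each array were given for the catalytic subunits and for the members with the largest passing rises and falls, up to 3 each way, for each dose against vehicle. The members and lists were chosen with earlier results of these data known. Alternatives covered the filter, scaling, fit, probe-set choice, the sets of 6 wells by running number as a block, and each array left out. Figures were drawn with matplotlib 3.10.9.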

Additional observations from a re-analysis of the deposited data

Results flagged for a closer look

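Single arrays stood apart from the rest of their group for 3 of 78 groups of values checked (gap to the nearest array over the group's range above 0.71), where chance gives about 1 in 20. Psmc5 read 13.84 on array 5 of the 300 µM group at 24 h, and 13.74 to 13.75 on the others. Psmd2 read 14.28 on array 4 of the 3000 µM group at 48 h, and 13.75 to 13.89 on the others. The members' median difference from the vehicle mean at 24 h was -0.065 on that same array, and 0.081 to 0.14 on the others. The hybridisation controls deviated by 1.39 there, and their part in these values was not tested.

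The change of the 3000 µM effect from 24 h to 48 h passed limma's adjusted test for 2 members, Psmb4 (0.27, adjusted p = 0.0197) and Psmb5 (0.26, adjusted p = 0.0474). It also passed for the core maturation factor Pomp (0.29, adjusted p = 0.0187) and for Ddi2, the protease acting on Nrf1 (-0.50, adjusted p = 0.0211).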

How the results depend on the processing

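The rises at 3000 µM were stable in number: with each array left out 19 to 21 members rose at 24 h and 24 to 30 at 48 h, and from 300 µM to 3000 µM 9 to 12 and 14 to 18. Without the filter 1 member rose at 300 µM at either time, as with plain variance moderation and with array medians centred, and 1 fell at 3000 µM at 48 h and 1 interaction passed upward without the filter. Centring left 1 fall at 3000 µM at 24 h and 0 at 48 h, 0 and 1 falls between doses and 0 interactions, and moved the medians to 0.21 (3000 µM at 24 h), 0.14 (between doses at 24 h) and -0.21 (vehicle over time). Quantile normalisation gave 6 rises at 300 µM at 24 h, 1 fall at 3000 µM at 24 h, 6 falls in vehicle over time, 0 interactions upward and 1 downward, and medians of 0.14 (between doses at 48 h) and -0.083 (vehicle over time). Fitting the compared groups alone gave 0 falls at 3000 µM at 48 h, 2 and 1 between doses and 1 interaction. Array weights gave 8 rises at 300 µM at 48 h, 0 falls at 3000 µM at 48 h and 2 falls between doses at 24 h. Without the 2 arrays that stood apart the counts were 7, 1 and 2, and the median at 3000 µM at 48 h was 0.26. Plain moderation left 1 fall at 3000 µM at 48 h and 1 interaction. With running numbers as a block 1 fall at 3000 µM at 48 h passed; whether these numbers pair wells is not known. With the mean of a gene's probe sets 1 interaction passed upward and 1 downward, and Psmd9 turned to -0.042 at 300 µM at 24 h and -0.034 at 3000 µM at 48 h. In each of these cases the cause was not tested.

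With each array left out, rises at 300 µM numbered 1 to 4 at 24 h and 1 to 7 at 48 h, the highest without array 4 of the 3000 µM group at 48 h, and falls at 300 µM at 24 h 0 to 1. Falls at 3000 µM at 48 h numbered 0 to 3, falls between doses 1 to 2 and 1 to 4, falls in vehicle over time 8 to 21, and interactions upward 1 to 5 and downward 0 to 1. The median at 3000 µM at 48 h ran from 0.19 to 0.26. Of 1804 values of single genes under these alternatives, 1721 kept direction and side of the threshold, 56 lost and 25 gained the call, and 2 reversed.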
